A study of Mus musculus with 1012 samples.

Results

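The genes examined were the ligands, receptors and inflammasome components of the interleukin-1 (IL-1) system: Il1a, Il1b, Il1rn, Il18, Il1r1, Il1r2, Il1rap, Il1rl1, Nlrp3 and Casp1. They were chosen by name, and all 10 had a row among the 30452 features of the count table. Their counts were followed across 1012 single-cell libraries, of which 296 were Live-seq libraries made from cytoplasm drawn out of a living cell and the others scRNA-seq libraries of whole cells, 162 of them from a time course in which part of the IBA cells had been sampled by Live-seq before.

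RAW cells are macrophage-like mouse cells. RAW_LPS cells were exposed to lipopolysaccharide (LPS), which macrophages sense as a sign of bacteria, and RAW_Mock cells were the controls. The labels give RAW_Mock as not treated, and a legend of the paper states that these cells were given PBS. The exposure was 4 to 5 h for Live-seq, and the methods of the paper state no time for the cells of scRNA-seq. All RAW cells but 12 were RAW-G9, a clonal line of RAW264.7 that carries an mCherry reporter under the Tnf promoter and an EGFP-Rela fusion, treated or not. The other 12 were of the wild-type RAW264.7 line, with 11 in RAW_LPS and 1 in RAW_Mock, all from batch 5Reseq of Live-seq. IBA is an immortalized brown preadipocyte line made from the brown fat of young male C57BL6/J mice. ASPCs are primary adipose stem and progenitor cells from the subcutaneous fat of female C57BL/6J mice of 7 to 10 weeks. They were taken before (ASPC_Pre) or 2 days after (ASPC_Post) the start of adipogenic differentiation. The inducing medium held dexamethasone, isobutylmethylxanthine, insulin and rosiglitazone. These compounds were also present while ASPC_Post cells were sampled by Live-seq.

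IL-1α (Il1a) and IL-1β (Il1b) bind the receptor IL-1R1 (Il1r1), which then pairs with the accessory protein encoded by Il1rap to signal. The receptor antagonist (Il1rn) blocks IL-1R1 and the decoy receptor IL-1R2 (Il1r2) binds IL-1 without signalling, while ST2 (Il1rl1) is the receptor for IL-33 and uses the same accessory protein. NLRP3 (Nlrp3) is a sensor that assembles the inflammasome, in which caspase-1 (Casp1) cleaves the precursors of IL-1β and IL-18 (Il18) into their active forms.

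The upstream sequences of 4 genes are shown because they carry the contrasts described here: Il1a and Il1b, whose levels followed each other most closely, Nlrp3, the gene called after LPS, and Il1rn, which set the wild-type cells apart from the RAW-G9 cells. Each line holds the 250 bases before a RefSeq transcription start, 5′ to 3′ on the gene's strand, from the GRCm38.p6 annotation. Capitals mark matches, on either strand, to 4 patterns searched in 300-base windows from 250 bases before to 50 bases after each start: the TATA box (TATAAA), AP-1 (TGANTCA), the core of PU.1 sites (GAGGAA) and NF-kB.
Il1a, chr2:129309973-129310222, minus strand: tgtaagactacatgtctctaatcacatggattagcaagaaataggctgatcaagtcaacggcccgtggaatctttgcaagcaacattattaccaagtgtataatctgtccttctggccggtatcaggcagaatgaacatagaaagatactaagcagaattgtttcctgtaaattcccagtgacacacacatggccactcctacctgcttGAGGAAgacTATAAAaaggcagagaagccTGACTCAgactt
Il1b, chr2:129371140-129371389, minus strand: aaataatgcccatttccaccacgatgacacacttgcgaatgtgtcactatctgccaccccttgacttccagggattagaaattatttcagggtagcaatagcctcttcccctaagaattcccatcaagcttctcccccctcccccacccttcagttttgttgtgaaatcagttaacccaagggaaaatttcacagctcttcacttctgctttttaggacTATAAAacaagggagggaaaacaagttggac
Nlrp3, chr11:59541319-59541568, plus strand: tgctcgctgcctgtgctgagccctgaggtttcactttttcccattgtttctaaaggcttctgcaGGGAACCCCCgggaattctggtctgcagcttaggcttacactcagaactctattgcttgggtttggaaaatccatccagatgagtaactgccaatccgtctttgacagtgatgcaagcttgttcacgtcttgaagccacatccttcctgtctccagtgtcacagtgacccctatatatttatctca
Il1rn, chr2:24336610-24336859, plus strand: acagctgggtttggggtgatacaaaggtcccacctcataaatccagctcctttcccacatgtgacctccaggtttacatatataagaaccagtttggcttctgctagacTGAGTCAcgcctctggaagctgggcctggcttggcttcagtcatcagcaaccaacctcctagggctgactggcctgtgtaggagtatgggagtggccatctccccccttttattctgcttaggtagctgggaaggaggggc

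Il1a held a TATA box starting 32 bases before the start, with a PU.1 core at 41 and an AP-1 match at 12 bases before it. Il1b held a TATA box 31 bases before its start and no match to the other patterns in its window. Nlrp3 had 2 annotated starts: an NF-kB match lay upstream of the first, shown here, and 3 PU.1 cores lay upstream of the second. Il1rn had an AP-1 match upstream of the first of its 3 starts. Such matches are common, since 13.6% of 32851 promoter windows held the TATA box, 7.81% AP-1, 28.3% the PU.1 core and 4.51% NF-kB. Il1r2 and Il1rap held none of the patterns in these windows, which says nothing of the factors that act on them. Il1a (chr2:129299610-129309972) and Il1b (chr2:129364570-129371139) lie near each other on the minus strand. Il1r2 (chr1:40074079-40125231), Il1r1 (chr1:40225080-40317257) and Il1rl1 (chr1:40429570-40465415) lie in this order on the plus strand, and genes between them were not looked up.

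A library held 64547 to 1603790 counts in Live-seq and 41030 to 2671609 in scRNA-seq, outside the IBA time course, and the median number of genes detected was 3943 and 8436. Each library is 1 cell, so that counts were summed per batch and state over at least 3 cells, and these sums were the replicates: 15 in Live-seq and 12 in scRNA-seq. Levels are CPM, counts of these sums scaled to a common total, after removal of negative-control and ribosomal protein genes. The summed level of 10 macrophage markers was 2934 to 15995 CPM in the RAW-G9 sums and at most 606.6 CPM in IBA and ASPC sums, and that of 10 mesenchymal markers was at most 5.63 CPM in RAW sums. The 606.6 CPM was in the IBA sum of batch 9_1 in scRNA-seq, where the other IBA sums held 25.8 and 8.07 CPM. The sums carried the markers of their labels, which does not show that each cell did.

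Some libraries labelled RAW_Mock stood apart. The summed level of 5 LPS response genes (Tnf, Nfkbia, Cxcl2, Ccl3 and Ccl4) had a median of 823.3 CPM over the RAW_Mock and 14239.8 CPM over the RAW_LPS libraries of scRNA-seq, but was 12956 to 14358 CPM in 4 of the RAW_Mock libraries, all in batch scRNA. In Live-seq, 4 RAW-G9 libraries labelled RAW_Mock were likewise above 10000 CPM, 1 in batch 6 and 3 in batch 8_8. The RAW_Mock libraries of batch 6 were also higher as a group. Their median was 5343.3 CPM, against 496.6, 538.4 and 791.7 CPM in batches 7, 8_8 and 9_4. Without its 1 library above 10000 CPM, the batch 6 RAW_Mock sum still held 266.6 CPM of Il1a and 86.5 CPM of Il1b. The 4 scRNA-seq libraries also held nearly all of the Il1b and Il1a counted in RAW_Mock cells. Their Il1b levels were 1954, 3544, 1592 and 2812 CPM, and their Il1a levels 500.4, 907.6, 516.4 and 599.6 CPM. Results that rest on these libraries are given with and without them. They were picked after the data had been seen, by genes that move with LPS, and leaving them out widens any difference in genes that move with those.

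**Figure D1:**
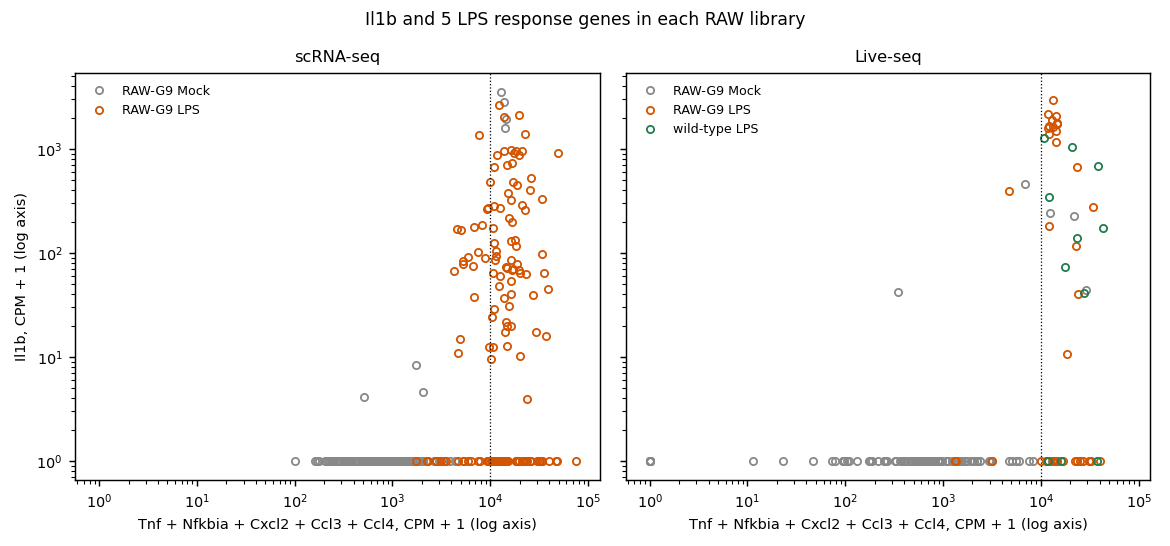
Il1b in each RAW library (vertical axis, CPM + 1, log scale) against the summed level of Tnf, Nfkbia, Cxcl2, Ccl3 and Ccl4 (horizontal axis, CPM + 1, log scale). scRNA-seq is on the left and Live-seq on the right, each circle is 1 library, and the dotted line marks 10000 CPM. In scRNA-seq, 4 RAW_Mock cells sit to the right of the line with at least 1592 CPM of Il1b, and nearly all other RAW_Mock cells lie on the floor.

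Among the ligands, Il1b had the highest mean level per length in RAW_LPS cells of scRNA-seq, although Il1a was above it in batch 8_8, at 20.9 against 17.1 CPM per kb of exon. Il1b was at 32.7, 103.7 and 369.1 CPM in batches 8_8, 9_1 and scRNA, which held 15, 46 and 88 cells. RAW_Mock sums of the same batches, of 16, 46 and 95 cells, held 0, 0 and 281.1 CPM, so that RAW_LPS was above RAW_Mock in each batch while the ranges overlapped. Without the 4 libraries, the last RAW_Mock value was 0.163 CPM (5 counts in 91 cells) and the groups no longer overlapped. Il1a showed the same pattern, with 41.2, 38.96 and 159.8 CPM in RAW_LPS and 0, 0 and 70.3 CPM in RAW_Mock. Without the 4 libraries, that 70.3 CPM became 0.033 CPM, a single count. In all RAW_Mock cells of scRNA-seq there were 9649 counts of Il1b and 2413 of Il1a, and the cell with the most counts held 38.03% and 38.96% of them.

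In Live-seq, Il1b was at 85.1, 1482, 0.699 and 60.9 CPM in the RAW-G9 RAW_LPS sums of batches 6, 7, 8_8 and 9_4, which held 4, 16, 9 and 10 cells, against 78.6, 0, 8.35 and 0 CPM in the 8, 20, 63 and 12 cells of RAW_Mock. Il1a was at 1190, 554.6, 0 and 156.1 CPM in RAW_LPS against 242.3, 0, 2.71 and 0 CPM in RAW_Mock. For both genes RAW_LPS was the higher in 3 of 4 batches, and batch 8_8 ran the other way. In that batch 7 of 9 RAW_LPS cells were above 10000 CPM of the LPS response genes, yet 1 of 9 held any Il1b and none Il1a. Its RAW_Mock counts of both genes came from the 3 libraries that stood apart, and without them the RAW_Mock level was 0 CPM. The Il1a of batch 6 RAW_Mock came from 1 of its 8 cells, at 1465 CPM, in a library with 6954 CPM of the LPS response genes.

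Il18 was counted in the RAW_Mock cells of every scRNA-seq batch and in every mesenchymal state of scRNA-seq. Its RAW_LPS levels were 18.6, 14.98 and 33.2 CPM and its RAW_Mock levels 3.70, 7.75 and 6.03 CPM, and each RAW_LPS sum was above each RAW_Mock sum. In Live-seq it was at 0, 41.7, 0 and 9.11 CPM in RAW_LPS and 69.05, 0.748, 13.7 and 0 CPM in RAW_Mock, and was the higher in RAW_LPS in 2 of 4 batches. Il1rn stayed close to 0 in RAW-G9 cells. It reached at most 1.97 CPM in RAW_LPS and 0.548 CPM in RAW_Mock of scRNA-seq, and no count of it was found in the RAW-G9 cells of Live-seq.

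The summed level of Nlrp3 was higher in RAW_LPS than in RAW_Mock in every batch of both techniques, although single cells of both groups overlapped. In scRNA-seq it was at 108.003, 86.2 and 305.04 CPM in RAW_LPS and 14.8, 15.6 and 47.7 CPM in RAW_Mock. In Live-seq it was at 47.5, 257.6, 70.6 and 80.3 CPM in RAW_LPS and 20.5, 8.11, 10.6 and 0.448 CPM in RAW_Mock, again without overlap. Casp1 did not part the groups. Its scRNA-seq levels were 43.6, 37.7 and 38.5 CPM in RAW_LPS and 33.7, 40.6 and 53.7 CPM in RAW_Mock, and in Live-seq its RAW_LPS levels of 0, 130.5, 0 and 103.5 CPM spanned the RAW_Mock levels of 0.639, 48.5, 26.1 and 28.9 CPM.

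**Figure D2:**
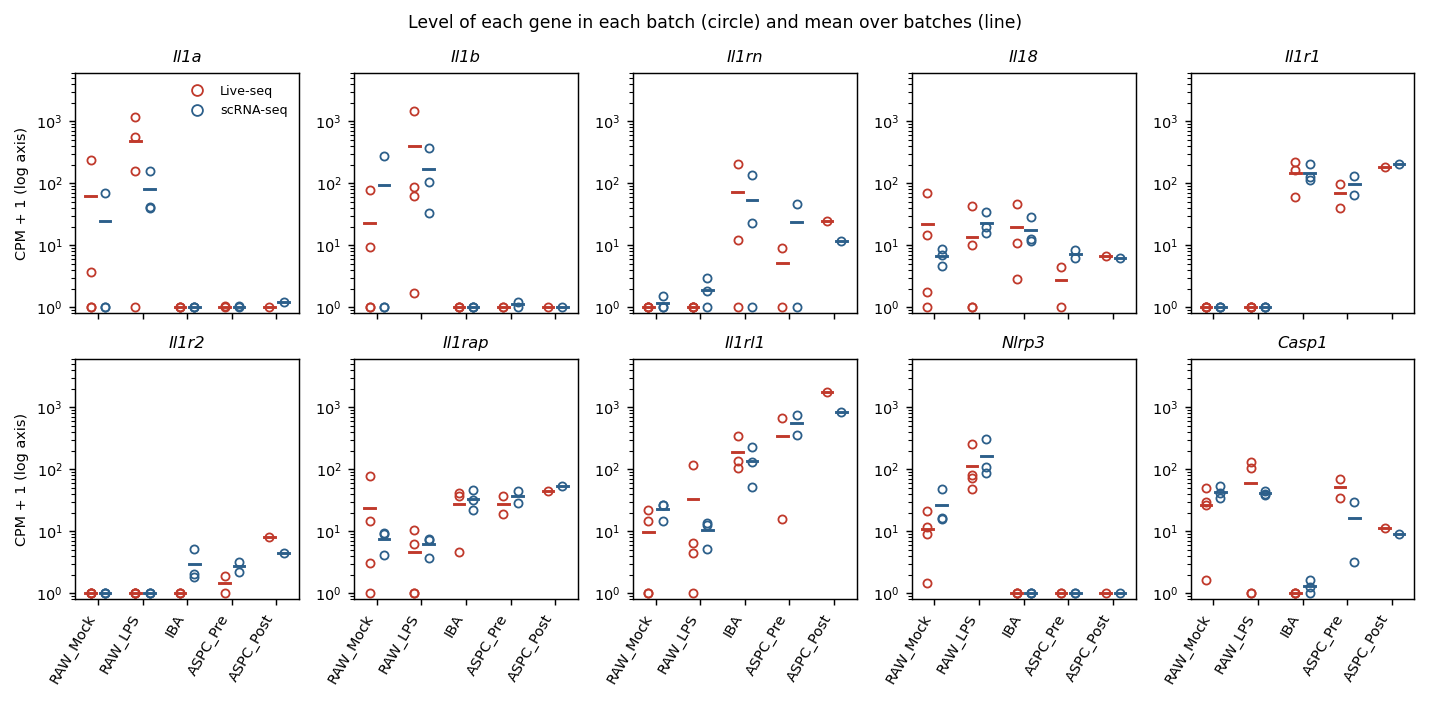
Level of each of the 10 genes (vertical axes, CPM + 1, log scale) in the 5 states (horizontal axes) for Live-seq (red) and scRNA-seq (blue) sums without the wild-type cells; each circle is 1 batch and each line the mean over batches. Nlrp3 is at 0 in IBA and ASPC sums and does not overlap between RAW_LPS and RAW_Mock, while Il1r1 and Il1rl1 are highest in the mesenchymal cells.

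Among the receptors, the signalling receptor Il1r1 and the decoy Il1r2 were nearly absent from RAW-G9 cells. No RAW_LPS cell of either technique held a count of Il1r1 or Il1r2, and the RAW_Mock cells held 1 count of Il1r1 in scRNA-seq and none in Live-seq. Il1rap was low and overlapped between both groups of scRNA-seq, at 2.66, 6.22 and 6.68 CPM in RAW_LPS and 8.55, 3.21 and 8.04 CPM in RAW_Mock. Il1rl1 was the one receptor whose scRNA-seq groups did not overlap, with 12.6, 4.23 and 11.9 CPM in RAW_LPS and 25.9, 13.6 and 25.3 CPM in RAW_Mock. In Live-seq its RAW_LPS levels were 0, 5.43, 3.495 and 118.4 CPM, the last from 1 of 10 cells, and its RAW_Mock levels 0, 13.7, 21.1 and 0 CPM.

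Testing LPS against Mock across all genes, 1 of the 10 genes passed in scRNA-seq, against 1.23% of the 13566 genes tested, with 0.921% higher and 0.31% lower (edgeR quasi-likelihood test, false discovery rate below 0.05 and absolute log2 fold change above 1). It was Nlrp3, which rose with a log2 fold change of 2.80 (SE 0.30, adjusted p = 0.0209 by edgeR). The call was lost without batch as a block and in each fit that left out a batch, with a log2 fold change of 2.75 to 2.90. Il18 had a log2 fold change of 2.15 (SE 0.54, adjusted p = 0.105 by edgeR), Il1a of 5.83 (SE 1.93, adjusted p = 0.231 by edgeR) and Il1b of 5.66 (SE 2.32, adjusted p = 0.328 by edgeR). Il1rl1 had -1.11 (SE 0.52, adjusted p = 0.385 by edgeR) and Casp1 0.11 (SE 0.68, adjusted p = 1 by edgeR). The median over the 10 genes was 1.13, against -0.01 over all genes tested.

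Without the 4 RAW_Mock libraries that stood apart, 3 of the 10 genes passed in scRNA-seq, against 2.14% of all genes. They were Il1a (log2 fold change 12.22, SE 0.73, adjusted p = 0.000854 by edgeR), Il1b (11.60, SE 0.90, adjusted p = 0.00186 by edgeR) and Nlrp3 (3.03, SE 0.34, adjusted p = 0.0118 by edgeR). The sizes for Il1a and Il1b depend on the prior count of the fit, since the RAW_Mock sums then hold 1 and 5 counts in all. The 4 libraries, picked after the data had been seen, held nearly all RAW_Mock counts of Il1a and Il1b. The calls of these genes follow from that choice and are no separate evidence. Both genes also passed the filter on low counts only through RAW_LPS cells. They had 2 or more counts in 38.9% and 58.4% of RAW_LPS cells and in 2.55% and 3.18% of RAW_Mock cells. Il18 had a log2 fold change of 2.14 (adjusted p = 0.0867 by edgeR). The rule that every RAW_LPS sum lies above every RAW_Mock sum held for Nlrp3 and Il18 with all libraries, against 6.04% of genes, and for Il1a, Il1b, Il18 and Nlrp3 without the 4, against 6.6% of genes. Every RAW_LPS sum below every RAW_Mock sum held for Il1rl1, against 11.5% of genes. RAW_LPS was above RAW_Mock in each of the 3 batches for Il1a, Il1b, Il18 and Nlrp3, against 14.8% of genes.

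In Live-seq, none of the 10 genes passed for LPS against Mock by edgeR, against 0.0% of the 13466 genes tested. At an unadjusted p below 0.05 it was 1 of the 10, Nlrp3 (log2 fold change 3.96, SE 1.71, adjusted p = 1 by edgeR), and 4.01% of all genes. DESeq2 called none of the 10 and 4.79% of all genes. Il1a had a log2 fold change of 5.46 (SE 3.802) and Il1b of 4.21 (SE 4.97), which became 8.86 (SE 3.23) and 8.61 (SE 3.44) without the 4 RAW_Mock libraries of Live-seq, still with an adjusted p of 1 by edgeR and against 0.00743% of genes called. Nlrp3 was the one gene of the 10 with every RAW_LPS sum above every RAW_Mock sum, against 0.929% of genes, and with RAW_LPS higher in all 4 batches, against 2.81% of genes. The spread between sums was larger in Live-seq, with a common dispersion of 1.5 against 0.184 in scRNA-seq.

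**Figure D3:**
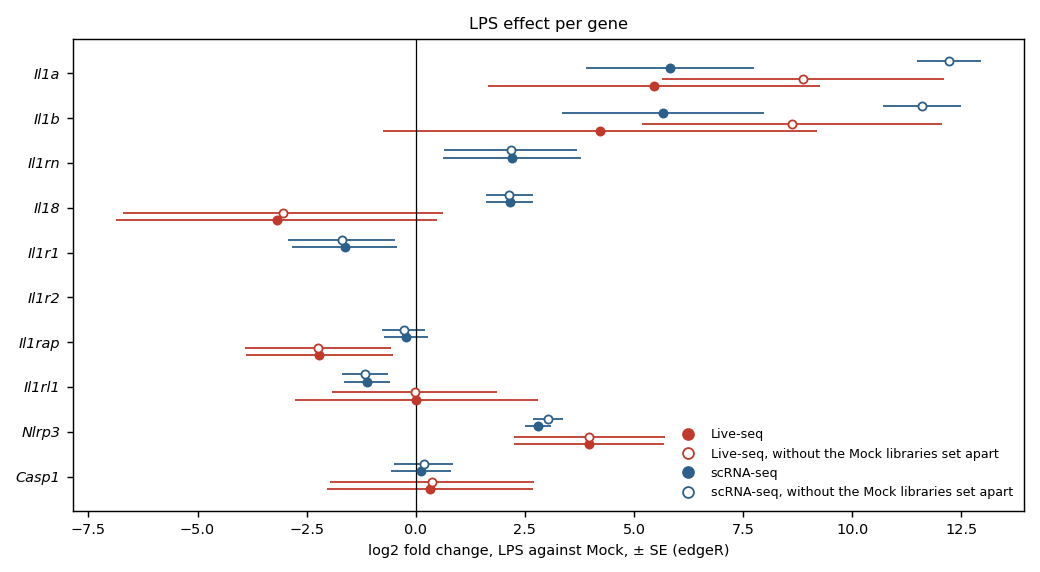
Log2 fold change of RAW_LPS against RAW_Mock (horizontal axis) for each gene, with bars of ± 1 SE from edgeR, for Live-seq (red) and scRNA-seq (blue), with all libraries (filled) and without the RAW_Mock libraries above 10000 CPM of LPS response genes (open). The open points of Il1a and Il1b lie to the right of the filled ones, those of Nlrp3 hardly move, and genes with no usable SE have no point.

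Whether the LPS effect differed between techniques was tested on the genes' effects themselves. Of the 10 genes, 8 passed the filter on low counts, which left out Il1r1 and Il1r2, and none differed by edgeR, against 0.0% of 11557 genes. None of the 8 had an unadjusted p below 0.05, against 4.78% of all genes, and DESeq2 called none of the 8 and 0.476% of all genes. The difference in log2 fold change was 1.22 (SE 1.603) for Nlrp3, -1.96 (SE 6.40) for Il1a and -3.99 (SE 8.12) for Il1b, so that large differences could not be detected with these sums. RAW_LPS levels of Live-seq against scRNA-seq, compared without batch in the model, likewise gave no call among the 8 by edgeR, against 0.0% of genes. Il1rn alone of them had an unadjusted p below 0.05 (9.58% of all genes did so), and DESeq2 called 0 of the 8 and 2.71% of all genes. Batch 8_8 held both techniques, and there the RAW_LPS sums had 70.6 CPM of Nlrp3 in Live-seq and 108.003 CPM in scRNA-seq, but 0.699 against 32.7 CPM of Il1b, 0 against 41.2 CPM of Il1a and 0 against 43.6 CPM of Casp1, in 9 and 15 cells.

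The share of RAW_LPS cells with at least 1 count, over all batches, was highest for Nlrp3 in both techniques, while the order of the other genes differed between them. Batch 7 of Live-seq was an exception, where 13 of 16 cells held Il1b (81.25%), 12 held Il1a (75%) and 10 held Nlrp3 (62.5%). In scRNA-seq, Nlrp3 was counted in 97.3% of cells (exact binomial 95% interval 93.3 to 99.3%), Casp1 in 77.9% (70.3 to 84.2%), Il18 in 61.1% (52.8 to 68.9%), Il1b in 59.1% (50.7 to 67.04%) and Il1a in 40.3% (32.3 to 48.6%). The RAW_Mock shares were 71.3% for Nlrp3, 67.5% for Casp1, 26.1% for Il18, 4.46% for Il1b and 3.18% for Il1a. Il1rl1 went from 55.4% of RAW_Mock to 27.5% of RAW_LPS cells. Without the 4 libraries that stood apart, Il1b was counted in 3 RAW_Mock cells (1.96%) and Il1a in 1 (0.654%). As a measure of background, Il1b, Il1a and Nlrp3 were each counted in none of the 15, 45 and 93 IBA cells of these batches, which allows a share of up to 1.96% by a floor of 3 cells and up to 2.38% by the exact binomial limit. These intervals cover counting error only.

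In Live-seq, 23 of the 39 RAW_LPS cells of the RAW-G9 line held Nlrp3 (58.97%, 42.1 to 74.4%), with Il1b in 19 (48.7%, 32.4 to 65.2%), Il1a in 16 (41.03%, 25.6 to 57.9%), Casp1 in 11 (28.2%, 15.001 to 44.9%) and Il18 in 6 (15.4%, 5.86 to 30.5%). The RAW_Mock shares were 21.4%, 4.85%, 2.91%, 17.5% and 6.80%, and without the 4 libraries that stood apart they were 19.2%, 2.02%, 1.01%, 16.2% and 6.06%. Batch 7 held 12 of the 16 RAW_LPS cells with Il1a and 13 of the 19 with Il1b. Without that batch, 4 of 23 cells held Il1a (17.4%), 6 held Il1b (26.1%) and 13 held Nlrp3 (56.5%). In scRNA-seq, Il1a was counted in 27.9% and Il1b in 42.6% of RAW_LPS cells when batch scRNA was left out. Thinned to 50000 counts per cell, the scRNA-seq shares became 89.9% for Nlrp3, 55.03% for Casp1, 39.6% for Il18, 53.02% for Il1b and 36.2% for Il1a. In Live-seq, where 1 of 39 cells had too few counts, they became 55.3%, 26.3%, 13.2%, 47.4% and 42.1%.

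**Figure D4:**
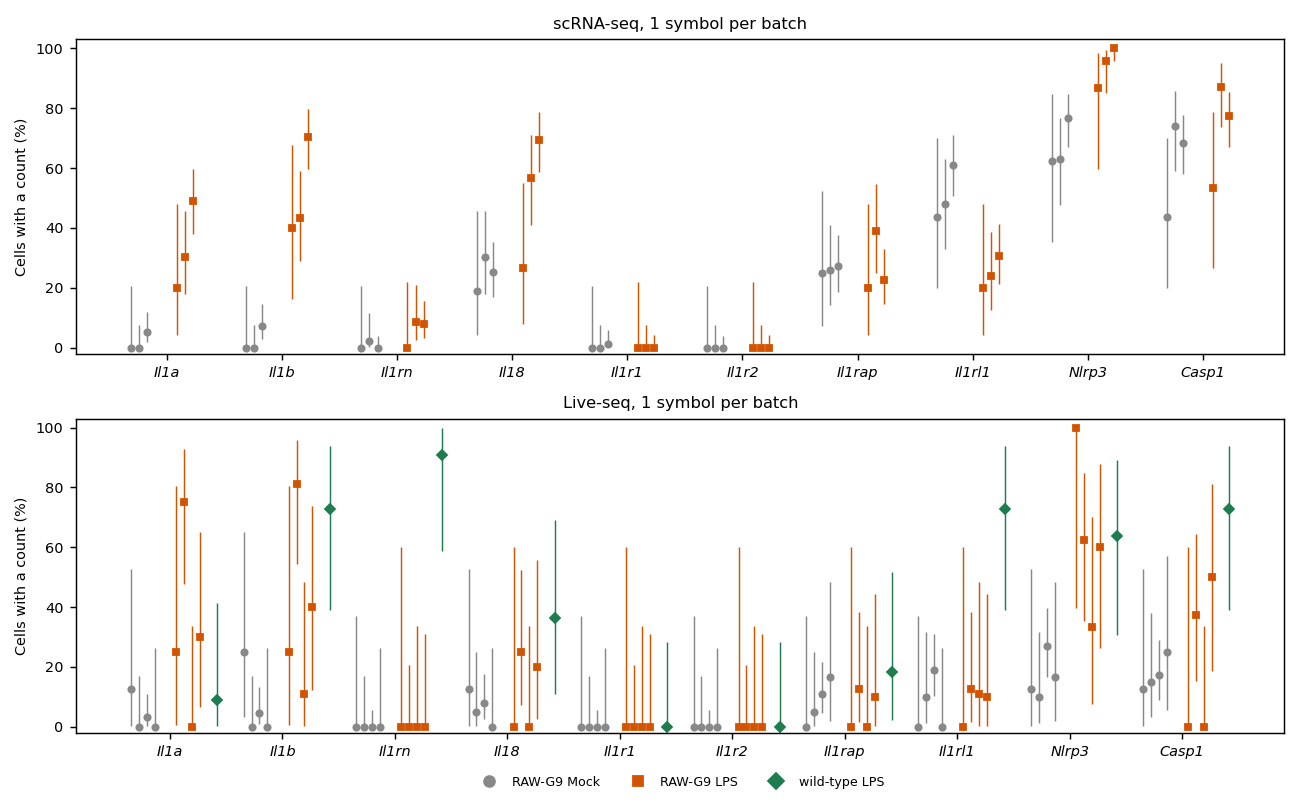
Share of RAW cells with at least 1 count of each gene (vertical axes, percent) in scRNA-seq (top) and Live-seq (bottom); each symbol is 1 batch, in the order of the batches within a group, and bars are exact binomial 95% intervals. In scRNA-seq, Il1b and Il1a reach at most 7.37% and 5.26% of RAW_Mock cells and 70.5% and 48.9% of RAW_LPS cells in a batch. In Live-seq, they reach 25% and 12.5% of RAW_Mock cells. Il1rn is counted in 90.9% of wild-type RAW_LPS cells but in no RAW-G9 cell of Live-seq.

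Il1a and Il1b tended to be counted in the same cells. Of the 60 RAW_LPS cells of scRNA-seq with Il1a, 47 (78.3%) also held Il1b, against 46.1% of the cells without Il1a. In Live-seq it was 14 of 16 (87.5%) against 21.7%. Casp1 was counted in 77.9% of the scRNA-seq cells with Nlrp3 and in 75% of those without it, and in 7 of 23 Live-seq cells with Nlrp3 (30.4%) and 25% of those without it. Depth and the batch of a cell are shared by both genes of such a pair, and their part in these shares was not tested.

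Over the 27 sums of both techniques, Il1b was most like Il1a (Pearson's r of log2(CPM + 1) = 0.938 over 27 sums), followed by Csf3 (0.880), Cxcl2 (0.871), Hdc (0.870) and Pim1 (0.867), out of 12802 genes. Nlrp3 ranked eighth (0.851), Casp1 and Il18 stood at 0.424 and 0.412, and Il1r1 at -0.647. These values are descriptions, since the sums share states, batches and the RAW_Mock libraries that stood apart.

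Of 4 pairs of Live-seq libraries from the same RAW-G9 cell before and after LPS, 2 were in batch 7 and 2 in batch 9_4. In both cells of batch 7, Il1b went from 0 to 1379 and from 0 to 1669 CPM, Il1a from 0 to 552.3 and 631.7 CPM, and Nlrp3 from 0 to 659.7 and 417.9 CPM. In both pairs of batch 9_4, Il1a and Il1b were at 0 CPM before and after, while Casp1 went from 0 to 233.5 and 222.8 CPM. Nlrp3 went from 0 to 426.3 CPM in one of them and from 2.33 to 0 CPM in the other. In that last pair the labels give both libraries the same extraction order, so that before and after were taken from their treatment. A value of 0 rests on 122644 to 430098 kept counts in the libraries taken before LPS. The library before LPS of one batch 7 cell held 2248 CPM of Il1rap, which was 86.2% of all Il1rap counts of RAW_Mock cells in Live-seq.

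The wild-type cells allow a comparison of lines in RAW_LPS, where the 11 cells gave 1 sum and no test between lines was possible. Of the 10 genes, 1 lay more than 4-fold outside the range of the 4 RAW-G9 sums, against 6.64% of 9482 genes. It was Il1rn, with 873.7 CPM (exact Poisson 95% interval 848.4 to 899.5) in 10 of 11 cells (90.9%, 58.7 to 99.8%), where 0 of 39 RAW-G9 cells held a count. Poisson intervals take reads as independent, so that here and in what follows they cover counting error only and not the spread between cells. Against a floor of 3 counts over the RAW-G9 cells, it was at least 5127-fold higher. This count was not carried by 1 cell, since the cell with the most Il1rn held 34.3% of it, and all 8 wild-type cells with Il1b also held Il1rn. The single wild-type RAW_Mock cell had 1 count of Il1b and none of the other 9 genes. By the same rule, 7.8% to 24.9% of genes set a RAW-G9 batch apart from the other 3, and line and batch cannot be told apart.

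Other genes of the group differed less between lines. Il1rl1 was at 222.2 CPM in 8 of 11 wild-type cells, against at most 118.4 CPM and 4 of 39 cells in RAW-G9. Casp1 was at 187.6 CPM in 8 of 11 cells, against at most 130.5 CPM and 11 of 39 cells. Il1b was within the RAW-G9 range at 323.1 CPM in 8 of 11 cells, Nlrp3 at 88.6 CPM in 7 and Il18 at 17.5 CPM in 4. Il1a was at 32.2 CPM from 1 cell. The macrophage markers summed to 34871 CPM in the wild-type sum, above all RAW-G9 sums, and the part of this in the other values was not tested.

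Between untreated macrophage-like and mesenchymal cells, the inflammasome genes Nlrp3 and Casp1 were higher in RAW_Mock, and the 4 receptors and Il1rn in IBA and ASPC_Pre. In scRNA-seq, 9 of the 10 genes were called for RAW_Mock against the mean of IBA and ASPC_Pre, against 37.9% of genes, with 4 higher in RAW_Mock (12.9% of all genes) and 5 lower (25%). Higher in RAW_Mock were Nlrp3 (log2 fold change 11.58, SE 0.53, adjusted p = 2.29e-05 by edgeR), Casp1 (4.29, SE 0.71, adjusted p = 0.00133 by edgeR), Il1b (8.75, SE 3.01, adjusted p = 0.0498 by edgeR) and Il1a (7.21, SE 2.47, adjusted p = 0.0490 by edgeR). The calls of Il1a and Il1b rested on the 4 RAW_Mock libraries that stood apart. Without them, 7 of 10 genes were called, against 38.3% of all, and the log2 fold change was -0.44 (adjusted p = 0.737 by edgeR) for Il1a and 1.21 (adjusted p = 0.374 by edgeR) for Il1b. Nlrp3 had no count in the IBA and ASPC_Pre cells, so that its pooled level in RAW_Mock, 32.7 CPM, was at least 1058-fold higher than a floor of 3 counts over those cells allows.

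Lower in RAW_Mock were Il1r1, Il1r2, Il1rap, Il1rl1 and Il1rn. Il1r1, Il1rn and Il1r2 passed the filter on low counts only through mesenchymal states, and Nlrp3 only through RAW states, which favours calls in these directions. Cells with 2 or more counts made up 97.4% of IBA for Il1r1, 20.9% of IBA for Il1rn and 22.9% of ASPC_Post for Il1r2. In RAW_Mock these shares were 0%, 0.637% and 0%. Il1r1 was at 110.7, 124.8 and 202.02 CPM in the IBA sums and 128.6 and 64.6 CPM in the ASPC_Pre sums of scRNA-seq, and RAW_Mock held 1 count (log2 fold change -12.90, SE 0.58, adjusted p = 8.64e-06 by edgeR). Il1rl1 was at 228.4, 51.7 and 133.1 CPM in IBA and 359.8 and 747.6 CPM in ASPC_Pre, 13.3-fold above RAW_Mock in pooled counts (log2 fold change -4.09, SE 0.55, adjusted p = 0.000437 by edgeR). Il1rap, at 21.3 to 44.8 CPM in IBA and ASPC_Pre, was 6.25-fold above RAW_Mock (log2 fold change -2.69, SE 0.49, adjusted p = 0.0022 by edgeR). Il1r2 was low in the mesenchymal cells, at 0.858 to 4.17 CPM, and at least 30.7-fold higher there than the floor of RAW_Mock (adjusted p = 0.0141 by edgeR). Il1rn was uneven, with 0, 21.96 and 134.5 CPM in IBA and 0 and 45.6 CPM in ASPC_Pre (log2 fold change -7.93, SE 1.75, adjusted p = 0.012 by edgeR), and its call was lost without batch 9_1. Il18 was not called (-1.10, SE 0.49, adjusted p = 0.099 by edgeR).

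Per kilobase of exon, the receptor levels of scRNA-seq had the order Il1rl1, Il1r1, Il1rap in ASPC_Pre, at 80.3 ± 39.8, 15.2 ± 7.11 and 3.19 ± 1.03 CPM per kb (SD, n = 2 sums). In IBA cells Il1r1 and Il1rl1 were not separated, at 22.9 ± 7.73 and 19.98 ± 12.8 CPM per kb (SD, n = 3 sums), and Il1rap was at 2.85 ± 1.04. In RAW_LPS cells, Il1b was at 88.4 ± 92.98, Nlrp3 at 41.02 ± 29.7, Il1a at 40.5 ± 35.03, Casp1 at 26.7 ± 2.12 and Il18 at 21.6 ± 9.34 CPM per kb (SD, n = 3 sums), and neighbours in this order overlapped.

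In Live-seq, 1 of the 10 genes was called for RAW_Mock against IBA and ASPC_Pre, against 2.87% of genes. It was Il1r1 (log2 fold change -12.68, SE 2.12, adjusted p = 0.0342 by edgeR), at 222.4, 59.5 and 162.6 CPM in IBA and 96.3 and 39.6 CPM in ASPC_Pre and without a count in RAW_Mock, which makes it at least 1206-fold higher in the mesenchymal cells. The call was lost when batch 7, 8_8 or 9_4 was left out, and Il1r1 had passed the filter on low counts only through mesenchymal cells. Nlrp3 had a log2 fold change of 8.21 (SE 1.93, adjusted p = 0.0687 by edgeR), with no count in IBA and ASPC_Pre cells. Casp1 had 4.97 (SE 1.81, adjusted p = 0.215 by edgeR) and Il1rl1 -3.44 (SE 1.89, adjusted p = 0.44 by edgeR).

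IBA and ASPC_Pre cells differed in 2 of the 10 genes in scRNA-seq, against 11.2% of genes, with 3.69% higher and 7.47% lower in IBA. Casp1 was lower in IBA, at 0, 0.636 and 0.248 CPM against 2.19 and 28.4 CPM in ASPC_Pre (log2 fold change -5.54, SE 0.96, adjusted p = 0.0108 by edgeR). Il1rl1 was lower too (-2.87, SE 0.62, adjusted p = 0.0219 by edgeR), 6.75-fold in pooled counts. Both calls were lost without batch 9_1 and without batch scRNA. In Live-seq none of the 10 passed by edgeR, against 0.0223% of genes. At an unadjusted p below 0.05 it was 1 of the 10, Casp1, against 3.95% of genes, with no count in 44 IBA cells and 33.2 and 69.8 CPM in ASPC_Pre. DESeq2 called Casp1 as well (adjusted p = 9.17e-05 by DESeq2) and 2.02% of all genes. The 69.8 CPM came from 1 of 18 cells.

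Adipogenic induction was measured in 1 batch per technique and was not tested. The inducing compounds and the differentiation itself cannot be told apart. Some ASPC_Post cells of Live-seq had already been sampled before induction, and this pairing was not used. Il1r1 was 3.15-fold higher in ASPC_Post than in ASPC_Pre of scRNA-seq, at 203.5 CPM (exact Poisson 95% interval 196.8 to 210.3) against 64.6 CPM (61.5 to 67.9), and 4.62-fold higher in Live-seq, at 182.9 against 39.6 CPM. These folds were 3.24 and 4.82 without the cell with the most counts of each group. The level of Il1rl1 rested on single cells, since 1 cell held 35.8% of its ASPC_Post counts in scRNA-seq and 45.9% in Live-seq. It was at 856.3 against 747.6 CPM in scRNA-seq, but at 568.9 against 638.4 CPM without the cell with the most counts of each group, so that the direction turned. In Live-seq it was at 1750 against 664.9 CPM (2.63-fold) and without those cells at 984.4 against 615.3 CPM (1.5997-fold). The share of cells with Il1rl1 was lower in ASPC_Post by both techniques, at 82.9% against 93.2% in scRNA-seq and 70.3% against 81.4% in Live-seq. Casp1 was lower in ASPC_Post by both techniques, with 8.19 against 28.4 CPM and 10.4 against 33.2 CPM, and stayed so without the highest cells. Il1rn went opposite ways, at 10.9 against 45.6 CPM in scRNA-seq and 23.5 against 8.24 CPM in Live-seq. It was counted in at most 8 cells of any of these 4 groups, and 1 cell held 51.9% to 100% of its counts in each. Nlrp3 and Il1b had no count in ASPC_Post cells of either technique.

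IBA cells were also sequenced whole without earlier sampling (labelled 0 h) and 1 h or 4 h after Live-seq sampling, in 1 batch and without a test. Il1rl1 was at 122.3 CPM (117.97 to 126.8) in 70 cells at 0 h, 240.1 CPM (233.6 to 246.7) in 49 cells at 1 h and 148.8 CPM (142.9 to 154.9) in 43 cells at 4 h. Without the cell with the most counts at each time, it was at 81.8, 224.7 and 121.7 CPM. Il1rap was at 11.9, 25.6 and 17.4 CPM and Il1r1 at 62.9, 58.9 and 86.1 CPM at these times. Il18 was at 5.53, 4.66 and 14.4 CPM. Il1a and Il1b had at most 2 counts at any time, and Nlrp3 had counts in 1 of 162 cells.

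**Figure D5:**
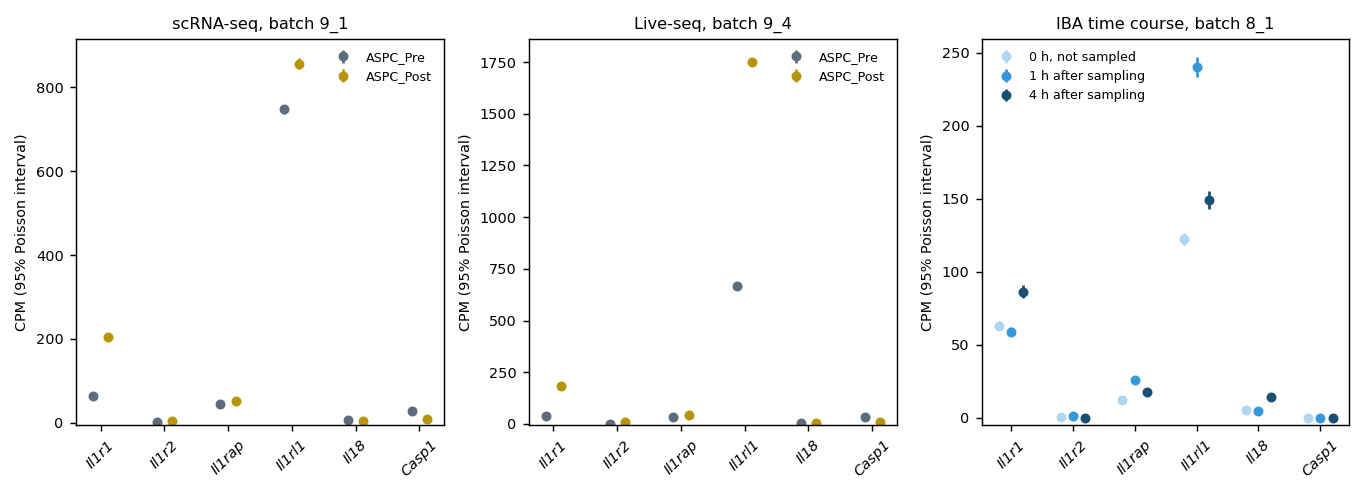
Level of 6 genes (vertical axes, CPM on a linear scale, with exact Poisson 95% intervals) in ASPC_Pre and ASPC_Post cells of scRNA-seq batch 9_1 (left) and Live-seq batch 9_4 (middle), and in IBA cells not sampled before (0 h) or 1 and 4 h after Live-seq sampling (right). Il1r1 is higher in ASPC_Post in both techniques, 1 cell held 35.8% and 45.9% of the Il1rl1 counts of ASPC_Post, and Il1rl1 is highest at 1 h in IBA cells, at 240.1 CPM.

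Of 36 other genes of the pathway (further family members and receptors, signalling proteins and inflammasome components), 26 were tested in each fit of 1 technique. After LPS, 2 rose and 0 fell in scRNA-seq, against 0.921% and 0.31% of all genes, and the median log2 fold change over the 26 was -0.01, as over all genes. Casp4, the caspase that senses intracellular LPS, was at 34.1, 69.7 and 74.9 CPM in RAW_LPS and 1.16, 6.85 and 8.01 CPM in RAW_Mock (log2 fold change 3.81, SE 0.43, adjusted p = 0.00966 by edgeR). Irak3, an inhibitor of IL-1 and Toll-like receptor signalling, was at 2.66, 2.71 and 3.83 CPM against 0, 0.157 and 0 CPM (6.19, SE 1.17, adjusted p = 0.0431 by edgeR). With RAW_Mock near 0, the size for Irak3 depends on the prior count of the fit. Both calls were lost without batch 8_8, where 0 of all 13566 genes tested were called. For RAW_Mock against IBA and ASPC_Pre in scRNA-seq, 9 were higher and 6 lower, against 12.9% and 25% of all genes. Of the inflammasome components among them, Gsdmd, Nlrp1a, Nlrp1b, Aim2, Txnip, P2rx7, Naip2 and Naip5 were higher in RAW_Mock, and Casp4 and Nek7 were lower. Of the 13 inflammasome components listed, 11 were tested, and of these 8 were higher, 2 lower and 1 not called. Pycard, Nlrc4 and Mefv had no call, in part because they were not all tested, which says nothing of their level. Il33, the ligand of the Il1rl1 product, was lower in RAW_Mock (log2 fold change -10.76, SE 2.05, adjusted p = 0.0103 by edgeR), as was Il1rl1 itself. A gene can pass the filter on low counts through 1 side of a comparison alone, which favours calls in that direction. This was not examined for Il33 and the other pathway genes. For IBA against ASPC_Pre, 0 were higher and 5 lower (Gsdmd, Nek7, Txnip, P2rx7 and Tollip), against 3.69% and 7.47% of all genes. In Live-seq 0 of the 26 were called in any of the 3 comparisons by edgeR, and 2, 8 and 1 had an unadjusted p below 0.05 for LPS against Mock, RAW_Mock against the mesenchymal cells and IBA against ASPC_Pre, where 4.01%, 15.8% and 3.95% of all genes did.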

How the data were processed

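The authors sequenced 75-base reads (bcl2fastq 2.19.1), aligned them with STAR 2.6.1c (build GRCm38) and counted reads per gene by HTSeq, union mode, without regard to strand, and these counts were used as deposited. The protocol kept no molecular identifiers, so that counts are reads and not molecules. Exons of Il1a, Il1b and Il1rap overlap those of other genes by 222, 25 and 552 bases.

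Each library was assigned to a state, line and batch by its labels. The 10 genes and the lists were chosen with earlier results of these data known. The 20 negative-control genes of the authors and 84 ribosomal protein genes (a median of 24.1% of Live-seq and 24.7% of scRNA-seq counts) were left out. Counts were summed per batch and state over at least 3 cells. Tested genes had 2 or more counts in 15% of cells in some state of scRNA-seq and passed filterByExpr (minimum count 2, minimum proportion 0.05). Sums of all 5 states were fitted per technique in edgeR 4.0.16 (R 4.3.3), with TMM scaling, the quasi-likelihood test, state and batch in the model, and a prior count of 0.125. Calls required a Benjamini-Hochberg adjusted p below 0.05 together with a change of more than 1 on the log2 scale. The fit was tested on simulated data. DESeq2 1.42.0 was an alternative, as were other scalings and filters and leaving out each batch.

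RAW_LPS and RAW_Mock sums share a batch by their labels, and across genes their deviations from the group means correlated within a batch at 0.246 to 0.380 in scRNA-seq and -0.00873 to 0.242 in Live-seq. The labels do not say whether the batches were separate cultures, and p-values measure the spread between these sums. Intervals were exact at 95% and cover counting error only, and a level of 0 was set against a floor of 3 counts over the group. For shares at a common depth, each cell was thinned to 50000 counts. Named were all 10 genes, the pathway genes called after LPS in scRNA-seq, and the 5 genes most like Il1b; the other pathway genes were named after their values were seen. Gene lengths were from GENCODE vM21.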

Additional observations from a re-analysis of the deposited data

Results flagged for a closer look

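For each gene and each RAW-G9 state of Live-seq, the highest and the lowest of the 4 batches were compared with the others by Dixon's test, once for the level and once for the share of cells with a count. Of these 40 groups of 4 values, 28 were not all equal and could be tested. A value far from the others was found in 5, each of them a level. Chance gives about 1 in 20 for independent, normally distributed values, which these levels were not shown to be. In RAW_Mock, batch 6 stood out for Il1a at 242.3 CPM, where the nearest other sum was at 2.71 CPM, and for Il1b at 78.6 CPM, against 8.35 CPM. This batch held 8 cells, 1 of which had 1465 CPM of Il1a and 463.9 CPM of Il1b. In RAW_LPS, batch 7 stood out for Il1b at 1482 CPM, against 85.1 CPM in the nearest sum, and for Nlrp3 at 257.6 CPM, against 80.3 CPM. Batch 9_4 stood out for Il1rl1 at 118.4 CPM, against 5.43 CPM, and 1 of its 10 RAW_LPS cells held nearly all of these counts.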

How the results depend on the processing

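The log2 fold change of Nlrp3 after LPS in scRNA-seq was 2.75 to 3.03 in all 11 alternatives, with an adjusted p of 0.000405 to 0.213 over edgeR and DESeq2. Of the 10 genes, 1 was called in the reported fit for LPS in scRNA-seq, 4 with DESeq2 (Il1a, Il1b, Il18 and Nlrp3), 0 with no replicate block, where Nlrp3 had an adjusted p of 0.171 by edgeR, 3 without the RAW_Mock libraries that stood apart, and 0 to 0 when a batch was left out. All genes called in this comparison made up 1.23% in the reported fit, 0.0 to 0.135% when a batch was left out and 0.258 to 5.12% in the other alternatives.

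For RAW_Mock against IBA and ASPC_Pre in scRNA-seq, 7 to 9 of the 10 genes were called in every alternative. Il1a had a log2 fold change of -0.44 without the libraries that stood apart and of -1.29 to 10.33 when a batch was left out, and Il1b of -1.46 to 11.74, the lowest of both being without batch scRNA, which held those libraries. Il1b was no longer called with only the states compared in the fit (adjusted p = 1 by edgeR). In Live-seq, where 1 of the 10 was called, 3 were called with no low-count filter (Il1rn and Nlrp3 added), 3 with DESeq2 (Nlrp3 and Casp1 added), 2 with no replicate block (Nlrp3 added) and 0 to 1 when a batch was left out. Genes called in all were 2.87% in the reported fit, 0.179 to 3.76% when a batch was left out and up to 13.4% with DESeq2.

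For IBA against ASPC_Pre in scRNA-seq, 2 of the 10 were called, 4 with DESeq2, which added Il1a and Il1b at counts near 0, 1 with only the states compared and 0 to 2 when a batch was left out, and 11.2% of all genes became 0.322 to 19.4%. In Live-seq DESeq2 called 1, Casp1, and 2.02% of all genes, against 0.0223% in the reported fit. The block changed no other call among the 10 genes. The causes of these changes were not tested, except that leaving out a batch also leaves fewer sums. Thinned to 50000 counts, the share of RAW_LPS cells with a count in scRNA-seq was 39.6% for Il18, 13.4% for Il1rap, 16.1% for Il1rl1, 89.9% for Nlrp3 and 55.03% for Casp1. When a batch was left out, these shares were 27.9 to 44.7% for Il1a, 42.6 to 66.02% for Il1b and 49.2 to 64.9% for Il18 in scRNA-seq, and 17.4 to 53.3% for Il1a and 26.1 to 60% for Il1b in Live-seq, the lowest being without batch scRNA and without batch 7. Without the cell with the most counts of each group, ASPC_Post over ASPC_Pre was 3.24-fold for Il1r1, 0.891-fold for Il1rl1 and 0.258-fold for Casp1 in scRNA-seq, and 4.82-fold, 1.5997-fold and 0.418-fold in Live-seq. Leaving out batches from shares and these cells was chosen after the data had been seen. The 3 adipogenic and time course comparisons and that of the lines rest on 1 sum each and had no replicate check.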
